A study of Drosophila melanogaster with 4 samples.

Results

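The Polycomb group (PcG) and trithorax group (trxG) genes encode the chromatin proteins that keep Hox genes and other developmental regulators off or on through cell division. The set described here held 32 of the 17494 genes of the deposited count table. A gene entered by its symbol in the authors' comparison table and was matched to the count table by its FlyBase identifier, and all 32 were found. They were 8 genes of Polycomb repressive complex 1 (PRC1) and its partners, 7 of Polycomb repressive complex 2 (PRC2), 5 of PhoRC and PR-DUB, 3 trxG histone modifiers, 7 trxG chromatin remodelers and 2 genes for proteins that bind GAGA motifs.

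In flies, PRC2 trimethylates lysine 27 of histone H3, and PRC1 binds that mark, compacts chromatin and ubiquitinates histone H2A. PhoRC supplies sequence-specific DNA binding at Polycomb response elements, and PR-DUB removes ubiquitin from H2A. The trxG proteins methylate other residues, remove the repressive mark or remodel nucleosomes, and keep active genes active. Hox genes, Antennapedia (Antp) among them, are the classical targets of both groups.

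The study followed the Hox gene Antp in the myoblasts attached to the wing imaginal disc of Drosophila melanogaster, the precursors of the adult flight muscles. The first group, Antp RNAi, carried Mef2-Gal4, UAS-GFPnls and UAS-Antp RNAi, and the second group, the control, carried Mef2-Gal4, UAS-GFPnls and UAS-Y RNAi, a hairpin against the pigmentation gene yellow (y). Other label fields call the control WT and name the reporter UAS-GFP::Gma, so the control genotype is not given uniformly. Both groups were raised at 29 °C and taken at 0 hours after puparium formation, with 30 to 35 discs dissociated and about 50000 cells sorted for viability, size and GFP. Mef2-Gal4 drives in muscle lineages and is active in these myoblasts from the third larval instar. Hairpin, cross and strain background changed together and cannot be told apart. The labels speak of independent biological replicates, whereas the methods of the study describe technical replicates of one biological sample, so each p-value covers the spread between these libraries, which may be technical.

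The 4 libraries, replicates 1 and 2 of Antp RNAi and replicates 2 and 3 of the control, held 42110502 to 53957914 counts. Antp was lower in both Antp RNAi libraries, with 135 and 144 CPM (read counts relative to the TMM-scaled library size), against 192 and 172 CPM in the control libraries. Its log2 fold change was -0.38 ± 0.11 (SE) and did not pass edgeR's quasi-likelihood test (adjusted p = 0.145). The study itself reported less Antp protein in myoblasts under its Antp RNAi lines by antibody staining. Exon counts of RNA are a different measure. The target of the control hairpin, y, had 382 and 365 counts in the Antp RNAi libraries and 0 counts in both control libraries. All 10 myoblast markers were detected, among them twi at 2762 and 2448 CPM in Antp RNAi and 2545 and 2191 CPM in the control, and 2 of them were lower in Antp RNAi at an adjusted p under 0.05 in edgeR (Ama also at 0.001). These were Ama (319 and 337 CPM in Antp RNAi, against 909 and 848 CPM in the control) and ct (158 and 130 CPM, against 263 and 261 CPM). Among markers of other cells, some genes differed. The 10 hemocyte genes summed to 325 and 349 CPM in Antp RNAi, against 519 and 477 CPM in the control, but without Pxn (6.98 and 5.70 CPM, against 170 and 151 CPM) they summed to 318 and 343 CPM, against 349 and 326 CPM, which overlapped. That remainder was mostly Col4a1 (192 and 203 CPM, against 221 and 189 CPM) and vkg (82.3 and 97.2 CPM, against 86.9 and 90.8 CPM). It therefore says little about the genes with few counts. NimC1 was lower too, at 1 and 1 counts in Antp RNAi and 44 and 45 counts in the control. Both Antp RNAi libraries were also lower in srp (25 and 10 counts, against 41 and 43) and He (0 and 2 counts, against 7 and 6). The gene srp did not pass 0.05 in edgeR, and He was not tested. The genes eater and PPO1 were at or under 3 counts in every library, and Hml had 0 counts in each but control replicate 2, which had 10. The 8 fat body genes summed to 34.8 and 19.8 CPM in Antp RNAi, against 9.30 and 9.86 CPM in the control, and without apolpp (26.4 and 12.3 CPM, against 0.414 and 0.771 CPM) to 8.33 and 7.48 CPM, against 8.88 and 9.09 CPM. Lsp1alpha, Lsp2 and Fbp1 were at or under 3 counts throughout. The 11 disc epithelium genes summed to 1618 and 1391 CPM in Antp RNAi, against 1282 and 1239 CPM in the control, and 1 of them, caup, passed 0.05 (190 and 152 CPM, against 107 and 93.3 CPM). Without caup they summed to 1429 and 1239 CPM, against 1175 and 1146 CPM, still without overlap. Both Antp RNAi libraries were higher in hth (915 and 795 CPM, against 757 and 697 CPM) and ara (248 and 205 CPM, against 182 and 164 CPM). The gene ap overlapped (239 and 217 CPM, against 221 and 265 CPM). The sum without caup was mostly hth, ara and ap, so it says little about the genes with fewer counts. Among those, nub (5.14 and 7.18 CPM, against 1.355 and 4.405 CPM) and Ser (13.9 and 10.6 CPM, against 9.03 and 10.2 CPM) were higher. The groups of grh (4.10 and 3.37 CPM, against 1.788 and 3.855 CPM) and mirr (1.89 and 0.892 CPM, against 3.44 and 0.679 CPM) overlapped. None of these genes passed 0.05 in edgeR. The 12 proliferation genes summed to 3237 and 3319 CPM in Antp RNAi, against 2994 and 3010 CPM in the control, and none of them passed at an adjusted p under 0.05. The part of these cells in the values below was not tested, and in bulk RNA fewer cells of a type and less RNA per cell cannot be told apart.

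All 32 PcG and trxG genes passed edgeR's filter on low counts, which left 10360 genes, and each had between 779 and 55519 counts in every library. With edgeR's quasi-likelihood test and the study's threshold, an adjusted p under 0.001, none of the 32 was called, while 0.463% of all genes tested were. None passed 0.05 either, against 2.58% of all genes, and neither DESeq2, which called 2.28% of all genes at 0.001, nor limma-voom called one. At an unadjusted p under 0.05, edgeR passed 3 of the 32, against 11.5% of all genes, and all 3 were higher in Antp RNAi, a direction that 5.85% of all genes took at that threshold. These were the PRC1 paralogs Psc and Su(z)2 and the BAP remodeler subunit osa. The lowest adjusted p among the 32 was 0.288 (Psc).

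**Figure D1:**
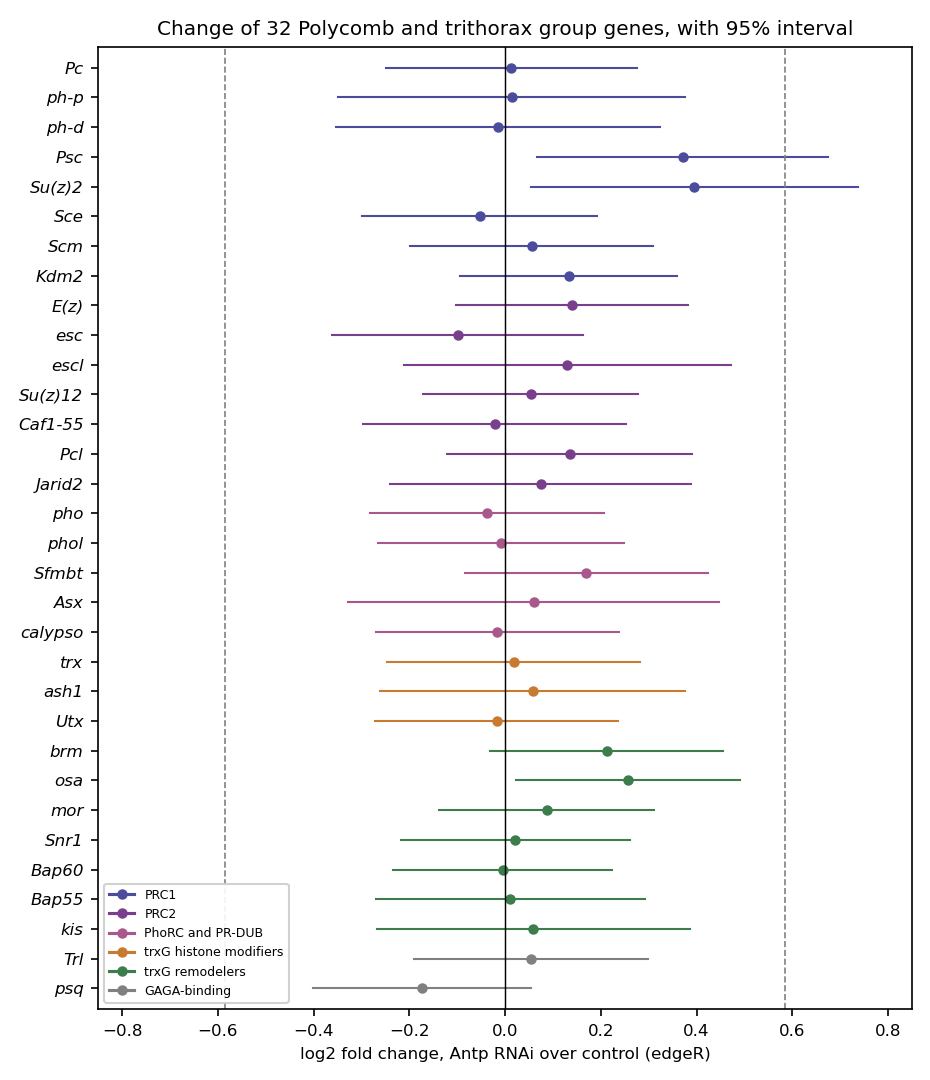
Log2 fold change, Antp RNAi over control, of the 32 genes (points) with the 95% interval of edgeR's quasi-likelihood fit (lines), grouped by complex, n = 2 libraries per group. The dashed lines mark a 1.5-fold change in either direction (0.585 on the log2 scale), which only the intervals of Psc and Su(z)2 crossed.

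The differences were small as well as uncalled. The 32 log2 fold changes ran between -0.17 (psq) and 0.40 (Su(z)2), with 22 above 0 and 10 below (16 and 16 without Antp RNAi replicate 1). Their median was 0.054, beside -0.012 over all genes tested. The median absolute log2 fold change was 0.056, beside 0.14 over all genes tested and 0.094 over the 5725 genes tested within the mean count range of the 32. Both Antp RNAi libraries lay above both control libraries in 9 of the 32 genes (18.6% of all genes tested did so). These were Psc, Su(z)2, Kdm2, E(z), Su(z)12, Sfmbt, brm, osa and mor. Both lay below in 3, Sce, esc and psq (22.1% of all genes).

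The intervals say which sizes of change the libraries leave possible. For 30 of the 32 genes the whole 95% interval lay within a 1.5-fold change in either direction, or 93.8%, beside 56.1% of all genes tested and 88.8% of the genes in the same count range. The exceptions were Psc and Su(z)2. All 32 intervals lay within a 2-fold change, with bounds between -0.40 and 0.74. The median standard error of the 32 log2 fold changes was 0.11.

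One library decided part of this count. Without Antp RNAi replicate 2, Su(z)2 was called at 0.001 (log2 fold change 0.61, adjusted p = 5.8e-04 in edgeR's quasi-likelihood test), where 2.11% of 10830 genes were called. In that fit 24 of the 32 log2 fold changes were above 0 and 8 below. Values that rose included Psc (0.54), osa (0.35), brm (0.32), Asx (0.32), Sfmbt (0.29), kis (0.28), Jarid2 (0.27) and Pcl (0.25). Other values fell, such as Caf1-55 (-0.16) and Bap55 (-0.12). The genes listed as rising had at least 4384 bases of exon, whereas Caf1-55 had 1828 and Bap55 1473. Exon length is taken up below. Leaving out Antp RNAi replicate 1 instead put 16 of the 32 values above 0 and 16 below. Dropping a control library gave 24 above and 8 below (replicate 2 dropped) or 20 above and 12 below (replicate 3 dropped). A group with 1 library left was assumed to vary like the other.

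PRC1 reads trimethylated H3K27 through the chromodomain of Pc, and its catalytic core is a pair of RING proteins, Sce (the H2A ligase) with Psc or Su(z)2. Psc (FBgn0005624, 2R, 12965997 to 12980994 in dm6, minus strand) and its paralog Su(z)2 (FBgn0265623, 2R, 12996501 to 13007911, plus strand) lie beside each other, 15506 bases apart, with CG33798 and lncRNA:CR44339 between them. Psc had 240 and 193 CPM in Antp RNAi libraries 1 and 2, against 178 and 157 CPM in control libraries 2 and 3. Both Antp RNAi libraries were above both control libraries, but the gap between the nearest libraries of the groups was smaller than the gap inside either group. The means were 217 ± 33.1 CPM in Antp RNAi and 168 ± 15.3 CPM in the control (SD, n = 2 each). The log2 fold change was 0.37 with a 95% interval of 0.067 to 0.67 (adjusted p = 0.288 in edgeR's quasi-likelihood test). Without single libraries the value ran between 0.21 and 0.54, and the adjusted p without Antp RNAi replicate 2 was 0.00163.

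Su(z)2 had 104 and 77.0 CPM in Antp RNAi, against 70.6 and 67.0 CPM in the control. Again the groups did not overlap, but Antp RNAi replicate 2 sat closer to the control libraries than to the other Antp RNAi library. The log2 fold change was 0.40 with an interval of 0.055 to 0.74 (adjusted p = 0.318 in edgeR's quasi-likelihood test), and it ran between 0.17 and 0.61 without single libraries. The ratio of Psc to Su(z)2 per kilobase of exon was 2.45 and 2.66 in Antp RNAi and 2.68 and 2.48 in the control, so the proportions of the pair overlapped between the groups although the levels of each gene did not.

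**Figure D2:**
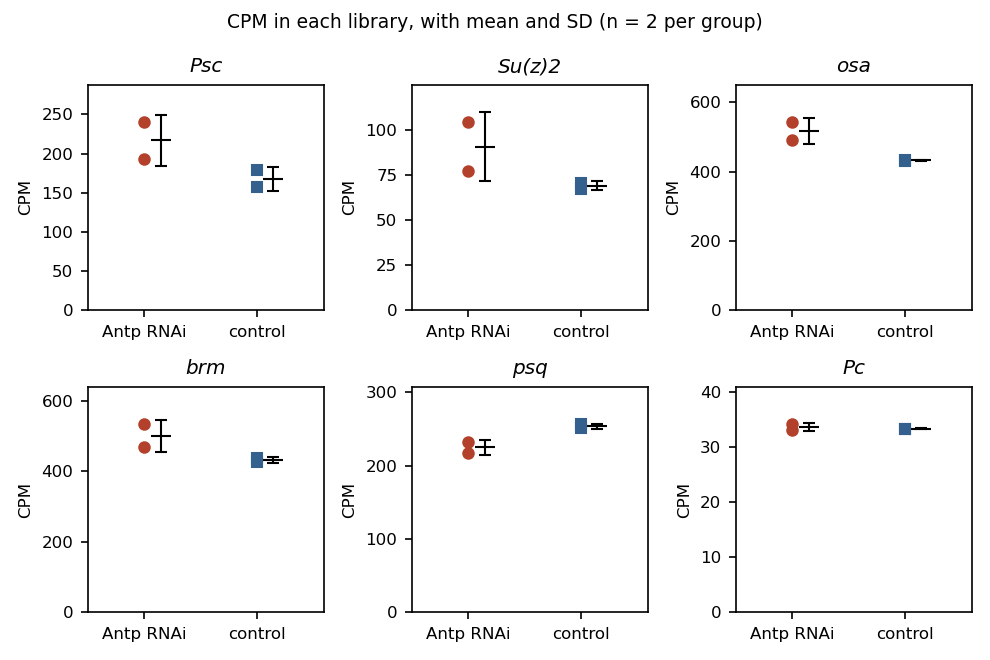
CPM (vertical axes, from 0) of Psc, Su(z)2, osa, brm, psq and Pc in each Antp RNAi library (red circles) and each control library (blue squares), with mean and SD (n = 2 per group). In Psc, Su(z)2, osa and brm both Antp RNAi libraries lie above both control libraries, in psq both lie below, and in Pc the groups overlap at 33.1 to 34.1 CPM and 33.2 to 33.3 CPM.

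The other PRC1 genes differed less. Pc, the founding member (FBgn0003042, 3L, 21306138 to 21318020), had 34.1 and 33.1 CPM in Antp RNAi, against 33.2 and 33.3 CPM in the control. Its groups overlapped in CPM, while its counts before scaling were 1445 and 1520 in Antp RNAi and 1766 and 1815 in the control. The interval of its log2 fold change was -0.25 to 0.28. Sce had 49.5 and 48.9 CPM in Antp RNAi, against 49.8 and 52.3 CPM in the control. Both Antp RNAi libraries of Sce were lower, by a log2 fold change of -0.053 with an interval of -0.30 to 0.19.

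Scm, a SAM domain protein that links PRC1 to other PcG proteins, had 201 and 174 CPM in Antp RNAi, against 185 and 176 CPM in the control, with the Antp RNAi libraries on either side of the control pair. Kdm2, a JmjC domain protein and a partner of Sce in the dRAF complex, had 223 and 210 CPM in Antp RNAi, against 199 and 196 CPM in the control. Its groups did not overlap, and its log2 fold change was 0.13 with an interval of -0.095 to 0.36. The polyhomeotic subunits come from a tandem pair on the X chromosome, ph-d (2115727 to 2123286) and ph-p (2126210 to 2138371), 2923 bases apart on the same strand. Their sequences are closely similar and the treatment of reads matching both is not given in the sources used here, so the counts of either copy are uncertain. Together they had 219 and 169 CPM in Antp RNAi, against 213 and 175 CPM in the control, a wide and overlapping spread in both groups. The ratio of ph-p to ph-d per kilobase was 0.936 and 0.940 in Antp RNAi and 0.949 and 0.884 in the control.

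In PRC2, the methyltransferase E(z) (FBgn0000629, 3L, 10634575 to 10638130) had 96.6 and 97.1 CPM in Antp RNAi, against 83.7 and 92.0 CPM in the control. Both Antp RNAi libraries were above both control libraries, and the log2 fold change was 0.14 with an interval of -0.10 to 0.38 (adjusted p = 0.748 in edgeR's quasi-likelihood test). Its zinc finger partner Su(z)12 had 168 and 164 CPM in Antp RNAi, against 159 and 162 CPM in the control. The groups of Su(z)12 were apart too, by a log2 fold change of 0.053. Caf1-55, a histone-binding WD40 subunit that PRC2 shares with chromatin assembly factor 1 and other complexes, had 301 and 368 CPM in Antp RNAi, around the 337 and 343 CPM of the control.

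The WD40 subunit that stimulates the enzyme comes from esc or its paralog escl, which lie on the same chromosome arm. The gene esc had 36.6 and 38.6 CPM in Antp RNAi, against 39.0 and 41.6 CPM in the control, with no overlap and a log2 fold change of -0.10 (interval -0.36 to 0.16). The gene escl had 20.3 and 16.9 CPM in Antp RNAi, against 17.3 and 16.8 CPM in the control, with overlap. The ratio of esc to escl per kilobase was therefore 1.91 and 2.42 in Antp RNAi and 2.40 and 2.63 in the control, and these ranges overlapped. Among the accessory subunits, Pcl had 351 and 304 CPM in Antp RNAi, against 308 and 289 CPM in the control, and Jarid2 had 239 and 184 CPM, against 209 and 193 CPM. In each, Antp RNAi replicate 1 was the highest library, and replicate 2 lay between the control libraries in Pcl and below them in Jarid2.

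PhoRC binds DNA through Pho or Phol and holds the MBT domain protein Sfmbt. The gene pho (on chromosome 4) had 67.8 and 73.6 CPM in Antp RNAi, against 71.1 and 74.0 CPM in the control. Its paralog phol had 177 and 152 CPM, against 168 and 163 CPM. Sfmbt was the gene of this class whose groups did not overlap, with 338 and 291 CPM in Antp RNAi, against 275 and 285 CPM in the control, and its log2 fold change of 0.17 had an interval of -0.084 to 0.42 (adjusted p = 0.677 in edgeR's quasi-likelihood test).

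PR-DUB pairs the deubiquitinase Calypso with its cofactor Asx. The gene calypso had 43.7 and 41.5 CPM in Antp RNAi, against 41.9 and 44.3 CPM in the control. Asx spread more than any other of the 32 between the Antp RNAi libraries, at 235 and 162 CPM, with the 201 and 180 CPM of the control between them. The interval of its log2 fold change, -0.33 to 0.45, was the widest of the 32.

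The trxG histone modifiers showed no separation of the groups. The H3K4 methyltransferase gene trx (FBgn0003862, 3R, 14263358 to 14286903) had 143 and 123 CPM in Antp RNAi, against 138 and 125 CPM in the control. The H3K36 methyltransferase gene ash1 had 148 and 115 CPM, against 134 and 119 CPM, and the H3K27 demethylase gene Utx had 123 and 111 CPM, against 124 and 113 CPM. Their log2 fold changes were 0.018 for trx, 0.057 for ash1 and -0.017 for Utx, with interval bounds between -0.27 and 0.38. The ratio of E(z) to Utx per kilobase, the writer and the eraser of the same mark, was 1.30 and 1.45 in Antp RNAi and 1.12 and 1.35 in the control, which overlapped.

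Brahma (brm) is the ATPase of the SWI/SNF-type BAP and PBAP remodelers, Moira (mor) its scaffold, and Osa the subunit that defines BAP. The gene osa (FBgn0261885, 3R, 17687818 to 17718350) had 543 and 490 CPM in Antp RNAi, against 432 and 433 CPM in the control. The control libraries nearly coincided and both Antp RNAi libraries were higher, at 517 ± 37.3 CPM in Antp RNAi and 433 ± 1.27 CPM in the control (SD, n = 2 each). The log2 fold change was 0.26 with an interval of 0.023 to 0.49 (adjusted p = 0.360 in edgeR's quasi-likelihood test), and it ran between 0.19 and 0.35 without single libraries. The gene brm had 533 and 468 CPM in Antp RNAi, against 438 and 426 CPM in the control, again without overlap, a log2 fold change of 0.21 with an interval of -0.031 to 0.46 (adjusted p = 0.533). The gene mor had 394 and 413 CPM, against 387 and 373 CPM, a log2 fold change of 0.087.

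Among the smaller BAP subunits, Snr1 had 146 and 162 CPM in Antp RNAi, against 154 and 150 CPM in the control. Bap60 had 366 and 396 CPM, against 377 and 388 CPM. The actin-related Bap55 had 161 and 197 CPM, against 172 and 184 CPM, and in all 3 genes the Antp RNAi libraries enclosed the control pair. The ratio of Bap60 to brm per kilobase was 1.99 and 2.45 in Antp RNAi and 2.49 and 2.63 in the control, without overlap. It was not tested, and how often ratios of other gene pairs separate in this way was not worked out. The nearest libraries of the groups were closer than the Antp RNAi libraries to each other. The exon lengths differ, 1936 bases in Bap60 and 5597 in brm, and exon length went with library differences, as described below. The ratio of brm to osa was 1.88 and 1.83 in Antp RNAi and 1.94 and 1.88 in the control, with the nearest libraries almost equal. The CHD-family ATPase gene kis had the most counts of the 32, 52033 and 41558 in Antp RNAi and 54541 and 55519 in the control. Scaled, kis had 1227 and 904 CPM in Antp RNAi, against 1026 and 1019 CPM in the control, so the Antp RNAi libraries lay on either side of a tight control pair.

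The GAGA-binding proteins have been linked to sites of both PcG and trxG action. Trl, which encodes GAGA factor, had 445 and 486 CPM in Antp RNAi, against 471 and 425 CPM in the control, with overlap. The BTB gene psq (FBgn0263102, 2R, 10557888 to 10617280) had 218 and 232 CPM in Antp RNAi, against 251 and 256 CPM in the control. Both Antp RNAi libraries of psq were lower, at 88.6% of the control level in the fit, and its log2 fold change of -0.17, the lowest of the 32, had an interval of -0.40 to 0.054 (adjusted p = 0.612 in edgeR's quasi-likelihood test). The ratio of Trl to psq per kilobase was 2.49 and 2.55 in Antp RNAi and 2.28 and 2.02 in the control, without overlap. This ratio was not tested either, and no share over other gene pairs was worked out.

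Levels were compared between genes as CPM per kilobase of annotated exon. The mean level over the 4 libraries spanned 21.0-fold, with Bap60 at 197 and Caf1-55 at 184 CPM per kilobase on top and escl at 9.86 and trx at 9.40 CPM per kilobase at the bottom. The order in between was Bap55, Snr1, mor, brm, Trl, Pcl, Sfmbt, kis, phol, Scm, osa, Su(z)12, Kdm2, E(z), Sce, psq, Psc, pho, Asx, Utx, Jarid2, esc, calypso, ash1, ph-d, ph-p, Pc and Su(z)2. Most of this order was not resolved, since in 28 of the 31 neighbouring pairs the ranges over the libraries overlapped. The 3 pairs that did not overlap were Caf1-55 and Bap55, Snr1 and mor, and esc and calypso.

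The BAP subunits Bap60, Bap55, Snr1, mor and brm stood near the top per kilobase, while osa ranked 13, and several PRC1 subunits stood toward the bottom. Exon lengths differed as well, with 1936 bases in Bap60 and 1335 in Snr1, and 14052 in trx but 1809 in escl at the bottom. The part of exon length in this order was not tested. In the control, 28 of the 32 levels were above the median of all genes tested (13.7 CPM per kilobase), and 4 were below it, Pc, Su(z)2, escl and trx. Bap60, Caf1-55, Bap55, Snr1 and mor were among the most abundant 10% of genes tested, and the median percentile of the 32 was 72.6. Within complexes the subunits were unequal. Sce stood above Pc by a ratio of 2.32 and 2.36 in Antp RNAi and 2.39 and 2.50 in the control, and Caf1-55 stood above E(z) by 4.54 and 5.53 in Antp RNAi and 5.86 and 5.43 in the control. The exon length counts every annotated exon, so a gene whose cells use a short transcript is set too low by this scale.

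**Figure D3:**
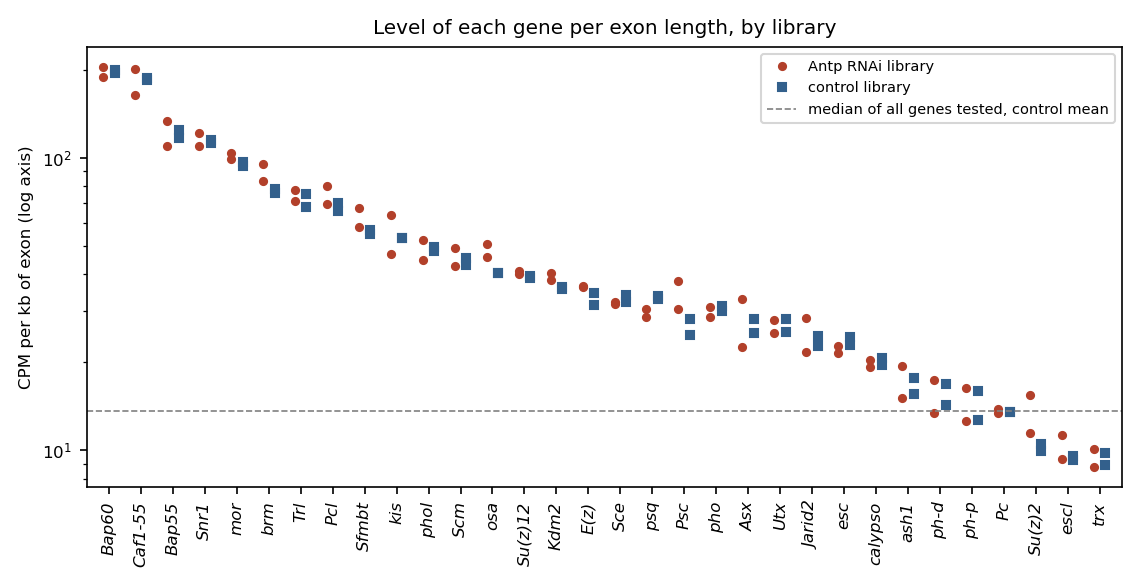
Level of each of the 32 genes in CPM per kilobase of exon (log axis), ordered by the mean over the libraries, in the Antp RNAi libraries (red circles) and the control libraries (blue squares). The dashed line is the median control level of all genes tested, 13.7 CPM per kilobase, and only Pc, Su(z)2, escl and trx have a control mean below it.

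Summed over its genes, PRC1 had 223 and 194 CPM per kilobase in Antp RNAi, against 199 and 188 CPM per kilobase in the control, with overlap. PRC2 had 383 and 401 CPM per kilobase, against 382 and 384, also with overlap. The sum for PhoRC and PR-DUB was 202 and 176 CPM per kilobase in Antp RNAi, against 182 in each control library. The trxG histone modifiers summed to 57.4 and 49.1 CPM per kilobase, against 55.6 and 50.0, and the GAGA-binding pair to 99.8 and 108, against 108 and 102. The remodelers were the one class whose sums did not overlap, 717 and 740 CPM per kilobase in Antp RNAi and 696 and 700 in the control, a ratio of means of 1.04. Over all 32 genes the sum was 1681 and 1668 CPM per kilobase in Antp RNAi, against 1622 and 1605 in the control, also a ratio of 1.04. With library totals in place of TMM scaling the ratio was 1.03, and other scalings were not run for the sum. No test was made of these sums.

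The summed exon length of the 32 genes, which their choice did not use, ran between 1335 and 19229 bases, and it went with the spread inside each group. Across the 32 genes, the log2 ratio of Antp RNAi replicate 1 over replicate 2 had a Pearson correlation of 0.66 with log2 exon length (Spearman 0.65, n = 32 genes, which share the same libraries). For control replicate 2 over replicate 3 the correlation was 0.54. The 12 genes with at least 6000 bases of exon had a median log2 ratio between the Antp RNAi libraries of 0.36, and in 10 of them replicate 1 was the higher. In the 10 genes under 2500 bases the median was -0.096, with 4 above 0. Asx (7167 bases) was highest at 0.54, and Caf1-55 (1828 bases) lowest at -0.29.

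A relation of the same sign appeared over a wider set of genes that includes the 32, though weaker, above all in the control pair. Over 6509 genes with a mean of at least 10 CPM the correlation with log2 exon length was 0.52 for the Antp RNAi pair and 0.14 for the control pair. The log2 fold change between the groups had a Pearson correlation with log2 exon length of 0.32 in the 32 genes and 0.17 in the 6509 (Spearman 0.41 and 0.37). When each library's trend on exon length was taken out, an alternative chosen after seeing the data, the median log2 fold change of the 32 was -0.00036, with 16 above 0 and 16 below. Psc then stood at 0.30 and Su(z)2 at 0.32 (adjusted p = 0.207 and 0.218 in edgeR's quasi-likelihood test), and none of the 32 was called.

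**Figure D4:**
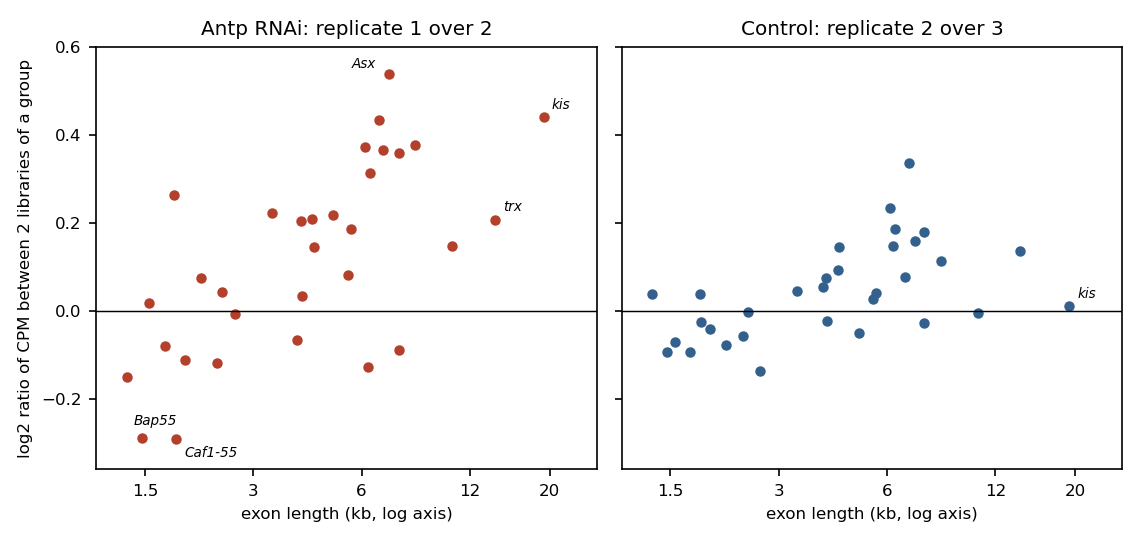
Log2 ratio of CPM between the 2 libraries of a group against exon length in kilobases (log axis) for the 32 genes, in Antp RNAi (left, red, replicate 1 over 2) and in the control (right, blue, replicate 2 over 3). In Antp RNAi the ratios run between -0.29 (Caf1-55) and 0.54 (Asx) and are mostly above 0 for genes over 6 kilobases, while in the control they run between -0.14 and 0.34.

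Reads over shared exons add a limit, since use of strand in counting is not given in the sources used here. Exons of 12 of the 32 overlap another gene. They are E(z) (CG34001), mor (Rbf2), Pc (CG7632), Scm (SpdS), trx (CG14839 and asRNA:CR46020), Trl (CG42507 and Tsen34), escl (dgt2), Sfmbt (CG43925 and asRNA:CR46256), Jarid2 (pall), Kdm2 (beag), calypso (clu) and kis (CG13693 and lncRNA:CR44221). Psc, Su(z)2, osa, brm and psq have no such overlap.

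A wider list of 49 PcG and trxG genes gave a like picture. It held further BAP and PBAP subunits, COMPASS-type methyltransferases, other remodelers, acetyltransferases and deacetylases, the Mediator kinase module and DNA-binding recruiters. All 49 were tested and none passed 0.001 or 0.05 in edgeR's quasi-likelihood test (0.463% and 2.58% of all genes), nor 0.001 in DESeq2. Their median log2 fold change was 0.072, with 33 above 0 and 16 below, beside 4920 above and 5440 below over all genes tested. Of the 49 intervals, 48 lay within 1.5-fold, beside 56.1% of all genes tested. The exception was grh, with few counts and an interval of -0.44 to 1.25. The median with length-adjusted offsets was not worked out for this list. Without Antp RNAi replicate 2, 10 of the 49 passed 0.05 (13.0% of all genes), 9 of them higher, and without replicate 1, 2 passed (7.03% of all genes), kto and dom, both higher. At an unadjusted p under 0.05 edgeR passed 3, all higher in Antp RNAi, where 11.5% of all genes tested passed and 5.85% passed in that direction. The Mediator kinase module gene kto had 144 and 161 CPM in Antp RNAi, against 130 and 115 CPM in the control (log2 fold change 0.32, adjusted p = 0.286). The methyltransferase gene trr had 158 and 160 CPM in Antp RNAi, against 128 and 136 CPM in the control (0.27, adjusted p = 0.313), and the PBAP subunit gene Bap170 had 269 and 265 CPM, against 221 and 230 CPM (0.24, adjusted p = 0.366).

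Among the Hox genes, the classical targets of these proteins, Antp had the highest counts, as given above. The Bithorax complex genes were near or at the floor of 3 counts in places, with Ubx at 1 and 2 counts in Antp RNAi and 1 and 0 in the control. The gene abd-A had 10 and 2 counts in Antp RNAi and 6 and 6 in the control, and Abd-B had 25 and 6 in Antp RNAi and 17 and 16 in the control. Ubx and abd-A did not pass the filter on low counts and were not tested, and Abd-B had a log2 fold change of 0.22 that did not pass (edgeR adjusted p = 0.959). In the Antennapedia complex, lab had 73 and 101 counts in Antp RNAi and 101 and 90 in the control, and Dfd had 101 and 93 in Antp RNAi and 143 and 118 in the control. After scaling, the groups of Dfd overlapped (2.38 and 2.02 CPM in Antp RNAi, against 2.69 and 2.17 CPM in the control). The gene pb had 31 and 27 counts in Antp RNAi and 84 and 77 in the control, a log2 fold change of -1.18 that did not pass (adjusted p = 0.224 in edgeR's quasi-likelihood test).

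Scr, the Hox gene of the same complex that acts just anterior to Antp, was the only one of 15 tested targets past 0.05, where 2.58% of all genes passed. It had 1 and 8 counts in Antp RNAi, against 104 and 900 counts in the control, and its adjusted p was 0.0269 by edgeR and 0.0052 by DESeq2, so neither tool called it at 0.001. The groups of Scr did not overlap, but its control libraries were themselves far apart. The marker genes of other cells that passed 0.05 in edgeR between the same groups, Pxn, NimC1, apolpp and caup, are given above. The part of other cells in the Scr counts was not tested.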

How the data were processed

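RNA-seq was made from sorted wing disc myoblasts with full-length cDNA amplification and tagmentation, without molecular identifiers. The authors deposited whole-number counts of reads per gene over exons, without normalization. Per the submitters' processing notes, bcl2fastq 2.17.1.14, Subread, featureCounts and DESeq2 1.34 were used with build dm6, and strand use and reads shared between genes are not given in the sources used here. The deposited comparison table gave gene symbols only. Its signal column (the authors' mean of normalized counts), log2 columns (the authors' fold change and its error), score column (the authors' Wald statistic) and p-value columns were not used. Every count column belonged to a sample (0 did not), and 0 entries lacked a gene.

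Counts were tested in R 4.3.3 with edgeR 4.0.16 (quasi-likelihood, two-sided) in all 4 libraries, after TMM scaling and edgeR's filter (minimum count 10), with Benjamini-Hochberg adjustment over the 10360 genes tested. A gene was called at an adjusted p under 0.001. The SE is the log2 fold change over the square root of F. The steps were tested on simulated data. CPM per kilobase divides CPM by the deposited exon length. Library totals were 42110502 and 46817694 counts in Antp RNAi replicates 1 and 2, and 53082579 and 53957914 in control replicates 2 and 3, so a count of 0 allows up to 0.0712, 0.0641, 0.0565 and 0.0556 CPM in that order (a floor of 3 counts, counting error only). The common biological coefficient of variation was 0.132. The chi-square statistic of counts per degree of freedom was 62.8 in the Antp RNAi pair and 16.4 in the control pair, so libraries of a group differed by more than counting noise. For pairs across the groups it ran between 61.8 (Antp RNAi replicate 2 and control replicate 3) and 84.2 (Antp RNAi replicate 1 and control replicate 3). The Antp RNAi libraries thus differed from each other about as much as the nearest pair across the groups.

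Groups came from the sample titles and genotypes. The members, the 49 further genes, the 20 targets and the marker lists were chosen with earlier results of these data known. Named genes are all members, Antp and y, further or target genes with an adjusted p under 0.05, the Hox genes, and genes whose exons overlap a member; the 3 further genes and the markers named by value were added after their values were seen. One gene of the further list, Rpd3, was matched as HDAC1 by a synonym, and the markers iro and tal were not matched. Alternatives were other scalings, DESeq2 1.42.0, voom of limma 3.58.1, other filters and thresholds, and leaving out each library. Offsets adjusted for exon length were added after seeing the data. No sequence is printed.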

Additional observations from a re-analysis of the deposited data

How the results depend on the processing

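No paired analysis was possible because replicate 2 is the one number that both groups have in common. None of the 32 PcG and trxG genes was called under another scaling, filter, threshold or tool with all libraries, and none of the 49 further genes was called at 0.001 under any alternative run. The count over all genes moved more, with 48 at 0.001, 32 to 33 with median-of-ratios or upper-quartile scaling, a mean of at least 100 counts or limma-voom, 63 with library totals, 113 at 0.01, 267 at 0.05, 236 in DESeq2, 120 when every gene with at least 1 count was tested, 78 with length-adjusted offsets, and 153 to 228 without single libraries. Without single libraries 0 to 1 of the 32 were called, the 1 being Su(z)2 without Antp RNAi replicate 2. The median log2 fold change of the 32 (0.054) was -0.00036 with length-adjusted offsets and ran between 0.012 and 0.15 without single libraries. The medians without single libraries ran between 0.032 and 0.15 for PRC2, between -0.048 and 0.12 for PhoRC and PR-DUB, between 0.066 and 0.12 for the remodelers, between -0.024 and 0.18 for PRC1, between -0.086 and 0.14 for the trxG histone modifiers and between -0.098 and -0.0016 for the GAGA-binding pair. The summed level, a ratio of 1.038, was 1.026 with library totals.

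Of 231 values for the 32 genes and Antp under 7 alternatives with all libraries, 211 kept direction and call, and the others turned direction within their error. With length-adjusted offsets these were Asx (-0.020), Jarid2 (-0.0061), Trl (-0.0018), ash1 (-0.020), kis (-0.038), ph-p (-0.059), trx (-0.065) and Bap60 (0.0010). With upper-quartile scaling they were Bap55 (-0.0063), Pc (-0.0040) and ph-p (-0.0032), and with library totals Bap55 (-0.0070) and Pc (-0.0029). Median-of-ratios size factors turned Bap60 (0.0082) and phol (0.0060), DESeq2 turned Bap60 (0.0095), phol (0.0073) and ph-d (0.0010), and testing every gene with at least 1 count turned Bap60 (0.0028) and phol (0.00069). The cause was not tested.

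Without single libraries, 19 genes turned direction, each at a small value in the fit of all libraries, and 14 of the 33 kept it in every setting. Their lowest and highest log2 fold changes were as follows: Asx (-0.23 to 0.32), Bap55 (-0.12 to 0.15), Bap60 (-0.044 to 0.055), Caf1-55 (-0.16 to 0.12), Jarid2 (-0.12 to 0.27), Pc (-0.0037 to 0.053), Scm (-0.045 to 0.17), Snr1 (-0.037 to 0.10), Trl (-0.0099 to 0.15), Utx (-0.086 to 0.074), ash1 (-0.13 to 0.24), calypso (-0.048 to 0.039), escl (-0.0014 to 0.27), kis (-0.17 to 0.28), ph-d (-0.21 to 0.18), ph-p (-0.18 to 0.21), pho (-0.079 to 0.026), phol (-0.12 to 0.12) and trx (-0.084 to 0.14). Antp stayed below 0 throughout (-0.45 to -0.28).

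With 2 libraries per group, none of these alternatives gives a measure of spread between independent crosses. The filter of a mean of at least 100 counts was run for the counts of calls only.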

Other observations

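Other classical Polycomb targets were mostly low in these cells, and none of those below passed 0.05 after adjustment in edgeR. The exception in level was tsh, a zinc finger gene of the trunk and proximal appendages, with 14408 and 14384 counts in Antp RNAi, against 22100 and 17601 counts in the control (log2 fold change -0.18, adjusted p = 0.748). After scaling, the groups of tsh overlapped (340 and 313 CPM in Antp RNAi, against 416 and 323 CPM in the control). The tandem pair en and inv, homeobox genes of posterior compartments, had 136 and 64 counts for en in Antp RNAi, against 127 and 200 in the control, and 393 and 383 counts for inv in Antp RNAi, against 489 and 527 in the control. In CPM the groups of inv overlapped (9.27 and 8.33 in Antp RNAi, against 9.20 and 9.67 in the control). The appendage gene Dll had 116 and 72 counts in Antp RNAi, against 9 and 96 in the control, and the signalling gene wg had 39 and 174, against 11 and 84, so libraries of one group differed as much as the groups did. The homeobox gene ems had 87 and 33 counts in Antp RNAi, against 11 and 23 in the control (log2 fold change 2.12, adjusted p = 0.166). The pair-rule gene eve and the gene cad had 0 to 4 counts in every library.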
